A study of Homo sapiens with 8 samples.

Results

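The SLC25 genes encode the mitochondrial carriers, and 47 of the 43317 genes on the array were chosen as members because their name is SLC25A followed by a number alone. These genes are measured by 60 of 58201 probes, and 13 of them have more than 1 probe. The members were read in 8 two-colour arrays of human cancer cell lines, 1 array per treatment, on which mock RNA carried Cy3 and treated RNA carried Cy5. PC3 (prostate cancer) received bisamide, a small-molecule inhibitor of the protein pirin, for 24 h on 1 array and for 48 h on another, and miR-125b-1-3p on the other PC3 array. C4-2 (prostate cancer) received miR-199-3p, 786-O (renal cancer) received miR-532-5p or miR-532-3p, and T24 (bladder cancer) received miR-140-5p or miR-140-3p. The time after a miRNA is not given in the labels, which call every mock culture untransfected. No control miRNA and no array with solvent alone is among the 8, so a treatment and its delivery cannot be told apart. Each group held 1 array with 1 dye orientation, so no p-value was computed, and a dye effect on a probe and a treatment effect cannot be told apart on a single array.

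Mitochondrial carriers are small membrane proteins, nearly all of the inner mitochondrial membrane, that exchange nucleotides, phosphate, amino acids, carboxylates and cofactors between the matrix and the cytosol. The ADP/ATP carriers SLC25A4, SLC25A5, SLC25A6 and SLC25A31 bring ADP into the matrix and export the ATP made there. A miRNA pairs with messenger RNAs mainly through bases 2 to 8 of its 5′ end, the seed, and commonly lowers the level of the messages it pairs with.

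The 6 mature miRNAs that were introduced are printed because each array compares the carriers with and without one of them or bisamide. Capitals mark the seed, and no seed is shared between any of the 6. Sequences and positions are those of RefSeq on GRCh38.p14, and the label miR-199-3p was matched to miR-199a-3p, which RefSeq places at 2 loci.
miR-532-5p, chrX:50003167-50003188, plus strand: cAUGCCUUgaguguaggaccgu
miR-532-3p, chrX:50003204-50003225, plus strand: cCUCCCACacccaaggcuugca
miR-140-5p, chr16:69933103-69933124, plus strand: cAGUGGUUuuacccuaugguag
miR-140-3p, chr16:69933142-69933162, plus strand: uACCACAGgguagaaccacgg
miR-199-3p, chr1:172144554-172144575 and chr19:10817429-10817450, minus strand: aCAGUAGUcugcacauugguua
miR-125b-1-3p, chr11:122099769-122099790, minus strand: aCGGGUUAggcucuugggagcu

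The log2 ratio of treated over mock RNA is used throughout, after background correction with an offset of 50 and loess normalization within the array. A member was read on an array where both channels were well above background by the flags of the scanner software. By this criterion 31 members were read on all 8 arrays and 41 on at least 1. The other 6, SLC25A18, SLC25A31, SLC25A34, SLC25A47, SLC25A48 and SLC25A53, were read on no array. Between 31 members (miR-532-5p) and 39 members (the 3 PC3 arrays) were read on an array. Spots of 1 probe repeated on an array had an SD of 0.039 to 0.053 in log2, and this is the only error that a single array gives. Raw intensities are printed as scanned, before the dyes were balanced, so their quotient need not match the ratio. In bulk RNA, fewer cells that express a gene and less RNA per cell cannot be told apart.

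The cell lines were checked against marker genes in the mock channels. KLK3, the gene of prostate-specific antigen, had a raw intensity of 13592 in C4-2 and 21.4 to 22.6 in the other lines, where it was not above background. In 786-O the renal markers PAX8, PAX2 and CDH6 were all above background. T24 did not show the urothelial markers UPK1B, UPK2, UPK3A and GATA3 above background, UPK1A was dim at 30.7 to 37.9, and PAX8 (390.3 to 423.0) and PAX2 (550.9 to 619.0) were well above background. Within PC3, the mock channel of the miR-125b-1-3p array differed from those of both bisamide arrays, with EPCAM, an epithelial adhesion protein, at 476.5 against 119.3 and 120.6. The leukocyte markers PTPRC, CD3E and CD14 stayed at 57.7 or less in all mock channels. The part of these marker levels in the carrier values was not tested.

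The strongest ratio of the family, and the lowest of all 15669 genes read on its array, was that of SLC25A5 with miR-532-5p. SLC25A5, the ADP/ATP carrier that is prominent in proliferating cells, had a log2 ratio of −2.75 there, from a raw intensity of 2022 in mock and 243.5 in treated 786-O cells. Its ratio was −0.10 with miR-532-3p in the same line. On the other arrays it was −0.31 with bisamide at 24 h, −0.38 at 48 h and −0.39 in the miR-125b-1-3p array of PC3, −0.20 in C4-2 (miR-199-3p), and 0.08 and −0.01 in T24 (miR-140-5p, then miR-140-3p). After loess SLC25A5 was thus slightly lower in treated RNA on the arrays of PC3 and C4-2, close to its mock level in T24, and far lower on 1 array alone. With median centring in place of loess its ratio was −2.85 with miR-532-5p but above 0 on the 7 other arrays, from 0.49 with miR-125b-1-3p to 1.03 and 1.11 in T24 (miR-140-3p, then miR-140-5p). Its single probe lies at chrX:118605131-118605190 on the plus strand (GRCh37). The rule for the family drew on these ratios and on the mock levels, so they are given as a description.

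The other ADP/ATP carriers did not share this ratio. SLC25A4, the form of heart and skeletal muscle, was between −0.29 and 0.04 on the 8 arrays, with −0.28 for miR-532-5p. SLC25A6, a broadly expressed form, was above 0 on 7 arrays, from 0.02 to 0.43, and at −0.11 with miR-125b-1-3p. Its value with miR-532-5p was 0.34 by the brighter of its 2 probes and 0.04 by the other. On the array where SLC25A5 was at its lowest, SLC25A6 was therefore one of the 3 highest members, though its second probe was close to 0. SLC25A31, the form of testis, was not above background on any array.

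A second kind of nucleotide carrier, which exchanges ATP-Mg for phosphate and is regulated by calcium, comprises SLC25A23, SLC25A24 and SLC25A25. With miR-532-5p SLC25A24 had a ratio of −1.19, from 328.9 in mock to 105.6 in treated cells. Its ratio with miR-532-3p was 0.47, from 322.8 to 619.8, so the mock levels of the 2 arrays were alike and the treated levels differed. On the other arrays SLC25A24 was −0.00 and 0.13 with bisamide at 24 h and 48 h, −0.02 with miR-125b-1-3p, 0.51 in C4-2 (miR-199-3p), and 0.11 and −0.24 in T24 (miR-140-5p, then miR-140-3p). It was thus among the 3 lowest members on 1 array and the highest member on the arrays of miR-532-3p and miR-199-3p.

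SLC25A23 was lowest with miR-140-5p in T24, where its ratio was −1.18, from 201.3 in mock to 106.6 in treated cells. With miR-140-3p in the same line it was −0.01, from 227.2 to 371.5. The other arrays gave −0.08 and −0.08 with bisamide at 24 h and 48 h, 0.28 with miR-125b-1-3p, 0.40 in C4-2 (miR-199-3p), and −0.16 and −0.27 in 786-O (miR-532-5p, then miR-532-3p). The second SLC25A23 probe, whose raw intensity was only 37.2 in mock and 30.7 in treated cells, gave −0.19 on the miR-140-5p array. This was the widest disagreement between probes of a member, 0.99 in log2, and the mean over both probes was −0.69. The low ratio of SLC25A23 thus rests on its brighter probe. SLC25A25 was between −0.47 (miR-199-3p) and 0.29 (miR-140-5p).

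SLC25A3 supplies the phosphate that ATP synthesis consumes, and also carries copper. Its lowest ratio was −0.92 with miR-140-3p in T24, from 8768 in mock to 10118 in treated cells. On that array SLC25A5, at a ratio of −0.01, went from 5006 to 10619 before the dyes were balanced. With miR-140-5p SLC25A3 was 0.10, from 7313 to 17462. The mock level of SLC25A3 was itself higher on the miR-140-3p array than on the miR-140-5p array, 13.03 against 12.76 in quantile-normalized log2, a gap of 0.27 within 1 line. On the 6 other arrays SLC25A3 lay between −0.38 (miR-532-5p) and −0.01 (miR-199-3p). Median centring of each array in place of loess turned the sign of its miR-140-3p value to 0.15.

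**Figure D1:**
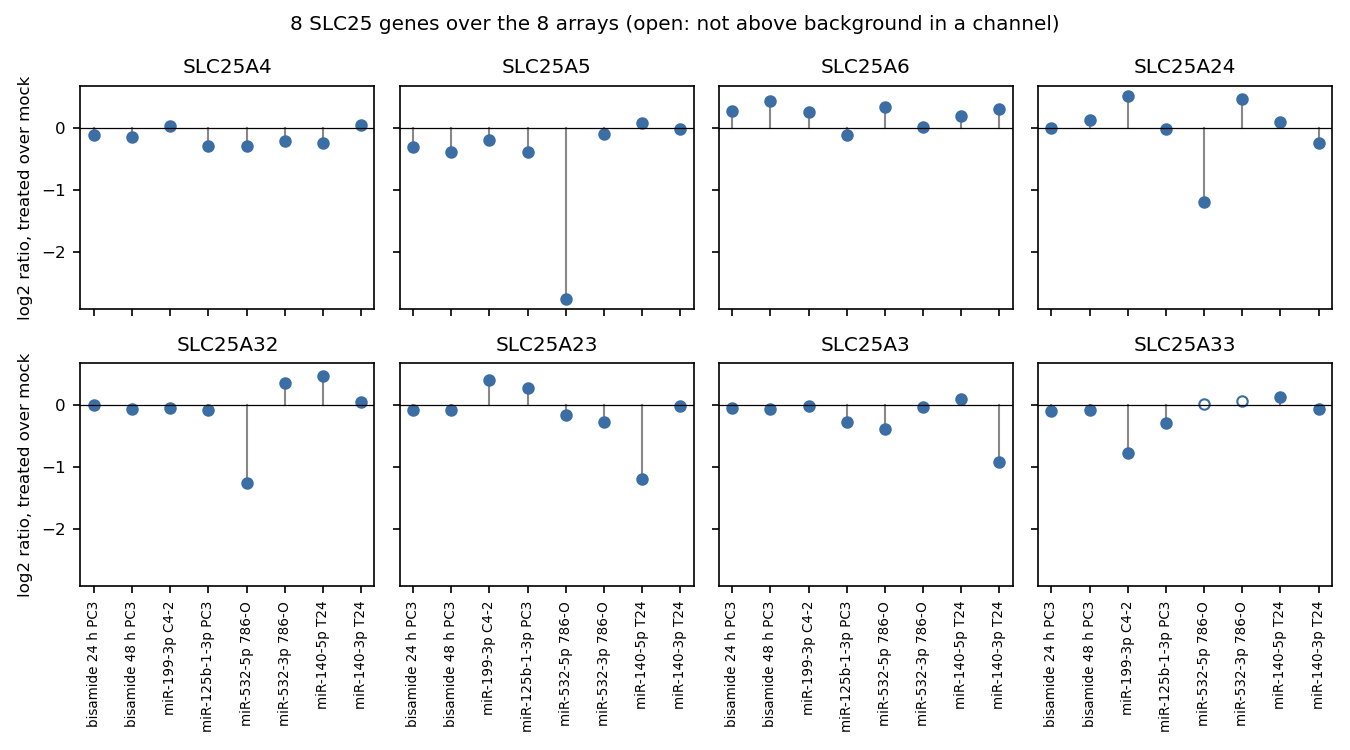
Log2 ratio of treated over mock RNA (vertical axis) of 8 SLC25 genes on each of the 8 arrays (horizontal axis), 1 point per array with a line drawn from 0, and open points where a channel was not above background. SLC25A5, SLC25A24 and SLC25A32 are lowest with miR-532-5p, SLC25A23 with miR-140-5p, SLC25A3 with miR-140-3p and SLC25A33 with miR-199-3p, while SLC25A4 and SLC25A6 stay between −0.29 and 0.43.

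Among the carriers of cofactors and nucleotides, SLC25A32 stood apart. SLC25A32 is linked to the entry of folate and FAD into mitochondria. Its ratio was −1.26 with miR-532-5p, from 260.3 in mock to 75.0 in treated 786-O cells, and 0.36 with miR-532-3p, from 272.0 to 479.5. The 2 bisamide arrays gave 0.01 and −0.05, miR-199-3p −0.05, miR-125b-1-3p −0.08, miR-140-5p 0.47 and miR-140-3p 0.05. SLC25A32 thus joined SLC25A5 and SLC25A24 as the 3 lowest members with miR-532-5p, and it was among the 3 highest with miR-532-3p and miR-140-5p.

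SLC25A33 and SLC25A36 are both pyrimidine nucleotide carriers, and both were low with miR-199-3p. SLC25A33 had a ratio of −0.77, from 830.7 in mock to 754.9 in treated C4-2 cells, the lowest member on that array. SLC25A36 was −0.42 by one probe and −0.21 by the other. With bisamide at 24 h SLC25A36 was the highest member at 0.39, and it was 0.17 at 48 h and 0.36 with miR-532-5p. SLC25A16, a carrier tied to coenzyme A, was above 0 on all 8 arrays, from 0.06 to 0.38, but its second probe had the opposite sign on 6 of them.

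The aspartate/glutamate carriers SLC25A12 and SLC25A13, which serve the malate-aspartate shuttle, had opposite signs on 5 arrays, namely bisamide at 48 h, miR-125b-1-3p and miR-199-3p, and also miR-140-3p and miR-532-5p. With median centring in place of loess the signs differed with miR-199-3p (0.99 and −0.31) and with miR-140-5p (−0.12 and 0.44) alone, and with miR-125b-1-3p both were above 0 (0.27 and 1.02). With miR-199-3p SLC25A12 was 0.51 and SLC25A13 was −0.50. With miR-125b-1-3p SLC25A12 was −0.34 and SLC25A13 was 0.46. In T24 SLC25A12 was −0.78 with miR-140-5p but −0.10 with miR-140-3p, while SLC25A13 was −0.03 and 0.45. The other arrays of opposite sign were closer to 0, with −0.29 and 0.02 for miR-532-5p and 0.04 and −0.08 for bisamide at 48 h. SLC25A11, the oxoglutarate/malate carrier of the same shuttle, was below 0 on all 8 arrays, from −0.54 with miR-140-5p to −0.03 with bisamide at 24 h. SLC25A38, a glycine carrier needed for heme synthesis, was also below 0 on all 8 arrays but only between −0.22 and −0.04. With median centring, SLC25A11 was below 0 on 2 arrays and SLC25A38 on 1. A dye effect on the probe cannot be told apart from a ratio that keeps to one side whatever the treatment.

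Other amino acid carriers lay closer to 0. SLC25A44, a carrier of branched-chain amino acids, was −0.50 with miR-532-3p and −0.37 with miR-532-5p. SLC25A22, a glutamate carrier, was 0.38 with miR-140-3p. SLC25A20, the carnitine/acylcarnitine carrier of fatty acid oxidation, was 0.24 with miR-125b-1-3p, and SLC25A15, the ornithine carrier of the urea cycle, was −0.22 with bisamide at 48 h. Apart from SLC25A44 with miR-532-5p, these were among the 3 highest or 3 lowest members on those arrays, yet all were 0.50 or less in size. SLC25A2 was read on the miR-140-5p array alone, where its ratio was −0.14.

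In the iron and glutathione group, SLC25A37, the iron importer mitoferrin of erythroid cells, had the highest ratio of the family. It was 0.70 with miR-140-5p in T24, and its second probe gave 0.61. With miR-140-3p both probes were near 0, at −0.06 and −0.07. With bisamide SLC25A37 was 0.14 at 24 h and 0.30 at 48 h. Its paralog SLC25A28, together with SLC25A39 and SLC25A40, which are linked to mitochondrial glutathione, ranged only from −0.27 to 0.16.

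The uncoupling-like carriers SLC25A14 and SLC25A30, which are related to the uncoupling proteins, were below 0 with miR-532-5p. SLC25A14 was −0.55 with miR-532-5p and 0.01 with miR-532-3p, and SLC25A30 was −0.38 and −0.51 in the same order. SLC25A14 was −0.30 and SLC25A30 −0.27 with miR-140-3p, the lowest members there after SLC25A3. SLC25A51, which imports NAD, was 0.31 with miR-532-5p, where its other probe gave −0.02. The carboxylate carrier SLC25A10 was −0.37 with miR-532-5p and −0.28 with miR-532-3p, and the citrate carrier SLC25A1 was 0.32 with miR-199-3p.

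**Figure D2:**
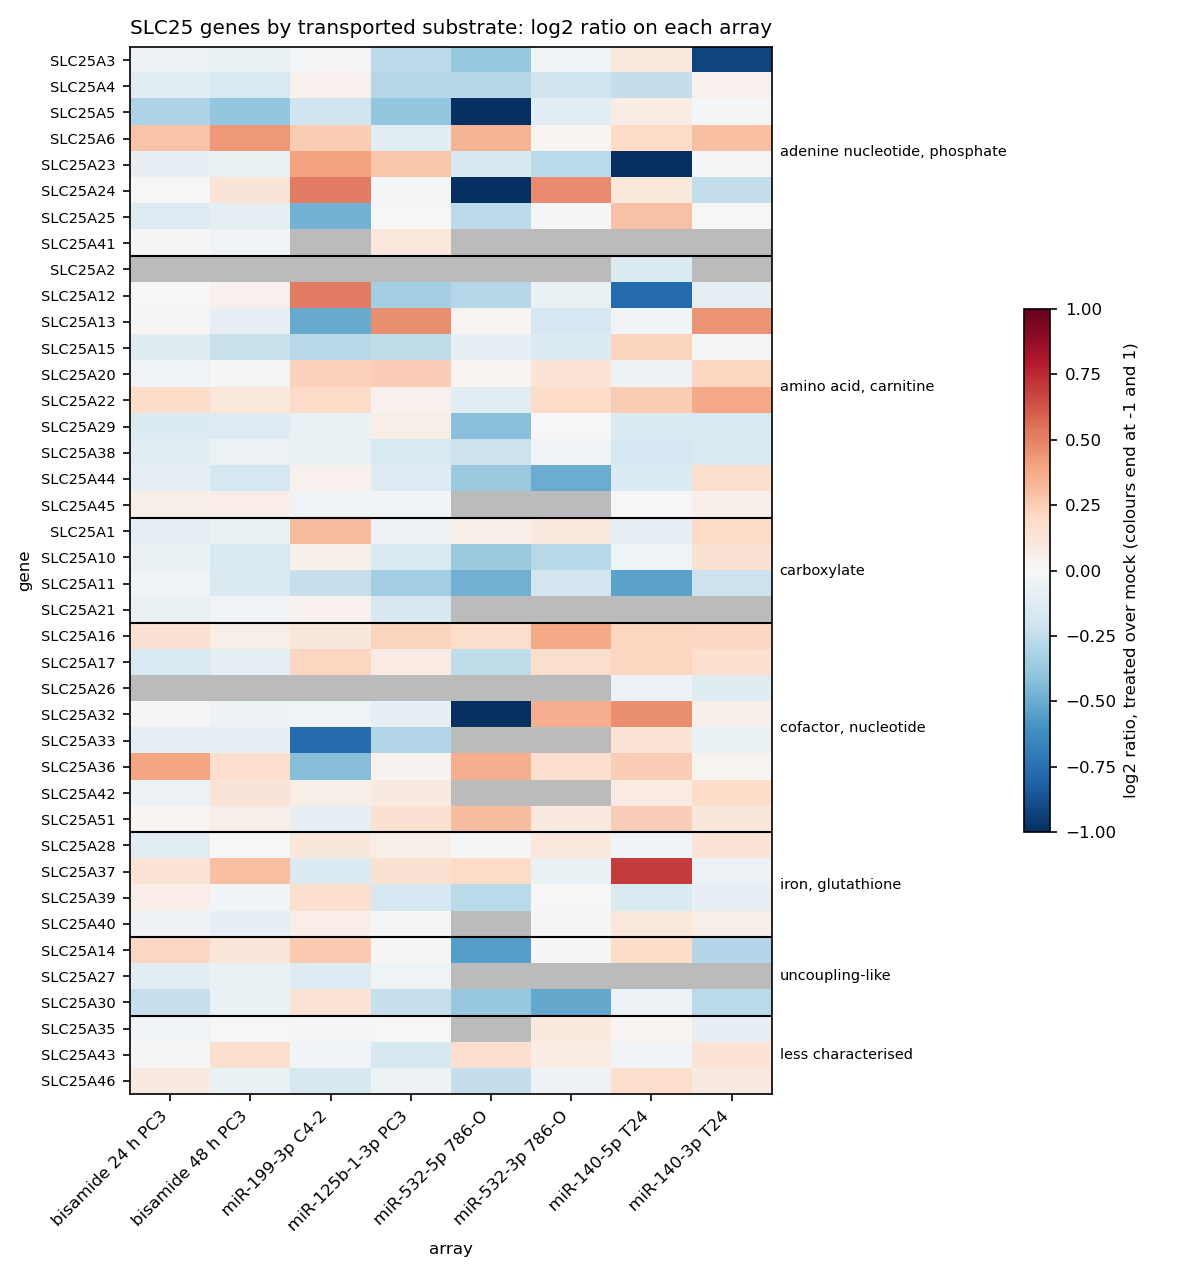
Log2 ratio of treated over mock RNA for SLC25 genes read on at least 1 array (rows, grouped by substrate) on the 8 arrays (columns). Blue is lower and red higher in treated RNA, colours end at −1 and 1, and grey marks a gene not above background in both channels. The miR-532-5p column is mostly blue, with SLC25A5, SLC25A24 and SLC25A32 at the end of the scale.

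Counted by size, 1 member was below −1.5. This was SLC25A5 with miR-532-5p, and the member next to that size was SLC25A32 on the same array. The text of the paper states that size for other miRNAs, not for the treatments on these arrays. It is set here on ratios that the offset draws towards 0 in dim genes. With the deposited ratio 5 member-array pairs were below −1.5, a count whose share of all genes is not given here. Of all genes read with miR-532-5p, 0.0893% were below −1.5. Below −1 with miR-532-5p were 3 of 31 members, SLC25A5, SLC25A32 and SLC25A24, against 0.447% of all genes. Below −1 with miR-140-5p was 1 of 38 members, SLC25A23, against 0.323% of all genes. The next member outside the size of 1 was SLC25A3 with miR-140-3p. No member was above 1 on any array. The share of all genes above 1 was 0.182% and 0.0946% with bisamide at 24 h and 48 h, 0.112% for miR-125b-1-3p, 0.115% for miR-199-3p, 0.357% and 0.0907% for the 5p and 3p strands of miR-532, and 0.119% and 0.0913% for those of miR-140. With median centring in place of loess, the 4 lower and 0 higher member-array pairs became 3 lower and 14 higher. That scaling left the median of all genes between −0.03 and 0.45 rather than near 0, and of the 14 pairs 5 were on the miR-140-5p array and 4 on the miR-140-3p array. SLC25A6 made up 5 of the 14. The share of all genes above 1 under that scaling is not given here, so nothing about the family is read from the 14 pairs.

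At the smaller size of 0.5, 5 of 31 members were lower with miR-532-5p against 3.67% of all genes, and 0 were higher against 3.6%. With miR-140-5p 3 of 38 were lower against 2.89%, and 1 was higher against 1.74%. With miR-199-3p 2 of 38 were lower against 2.73%, and 2 were higher against 1.76%. With miR-532-3p 1 of 33 was lower against 3.84%, and 0 were higher against 1.71%. On the miR-140-3p array 1 of 37 was lower against 1.09%, and 0 were higher against 0.998%. No member passed 0.5 in either direction with bisamide at 24 h (0.4% and 1.05% of all genes lower and higher), at 48 h (0.878% and 0.915%) or with miR-125b-1-3p (0.883% and 1.77%). Since the family was chosen with these ratios known, nothing is read from these shares beyond the description.

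The miR-532-5p array also differed in the middle of the family. Its member median was −0.26 against 0.00 for all genes, and 22 of 31 members, 71.0%, were below 0 against 49.9% of all genes. The interquartile range of the members was 0.40 there against 0.26 for all genes. On the other 7 arrays the member median lay between −0.06 (bisamide at 48 h) and 0.05 (miR-140-5p). The difference between member and all-gene medians with miR-532-5p stayed below 0 under each of the 10 alternative settings, from −0.46 to −0.07. These settings reread the same array, and the scanner's own ratio and the deposited series table among them hold the same values. The miR-140-5p difference also kept its sign under all 10, from 0.01 to 0.09. With bisamide and miR-125b-1-3p 25 of 39 members (64.1%) were below 0 on each array against 45.6% to 45.8% of all genes, but the difference of medians, −0.07 to −0.06, turned to 0.07 to 0.12 with median centring.

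**Figure D3:**
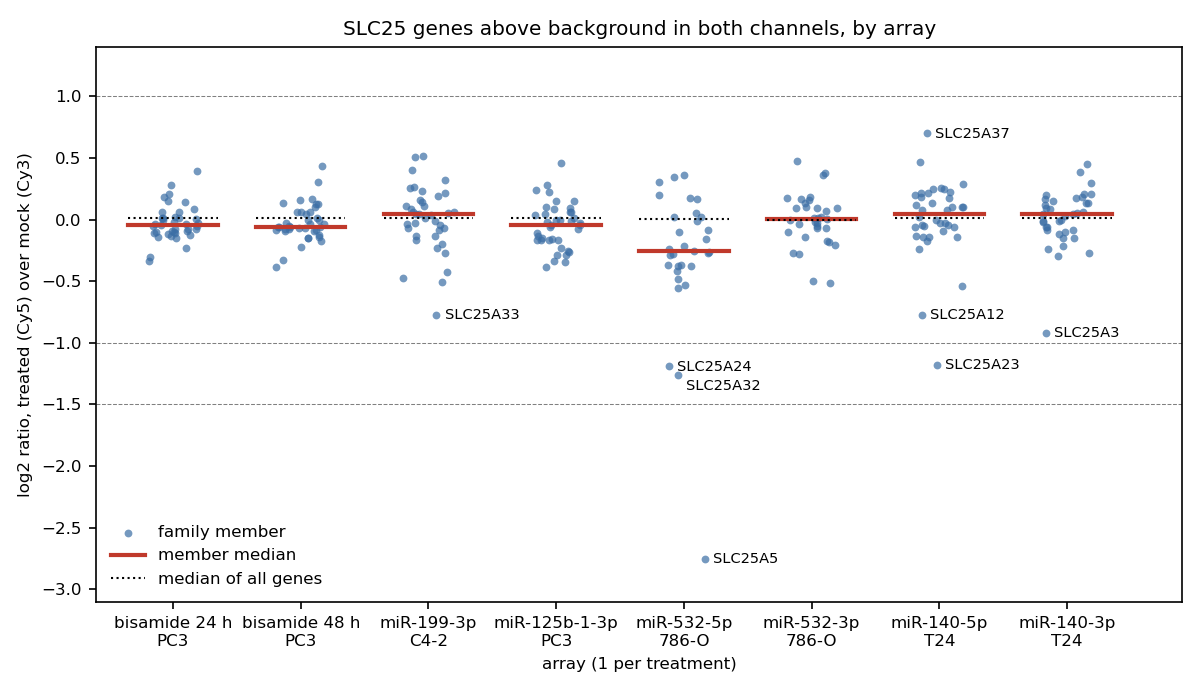
Log2 ratio of treated over mock RNA (vertical axis) of each SLC25 gene read on an array (points) for the 8 arrays (horizontal axis), with the member median as a red bar, the median of all genes as a dotted line and dashed lines at −1.5, −1 and 1. Members beyond 0.65 in size are named. The member median with miR-532-5p is −0.26, and all other member medians lie between −0.06 and 0.05.

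By substrate, the medians with miR-532-5p were −0.28 for 7 adenine nucleotide and phosphate carriers, −0.16 for 8 amino acid and carnitine carriers, −0.37 for 3 carboxylate carriers and −0.47 for 2 uncoupling-like carriers. They were −0.04 for 6 cofactor and nucleotide carriers, −0.02 for 3 iron and glutathione carriers and −0.04 for 2 less characterised members. With miR-532-3p the cofactor and nucleotide carriers had a median of 0.17, and all 6 read were above 0, as were 49.97% of all genes on that array. The second probe of SLC25A51 gave −0.01 there. With miR-140-5p the median of this group was 0.21, with 1 of 9 below 0 against 47.6% of all genes. With miR-140-3p it was 0.09, with 2 of 9 below 0 against 45.4%. On the arrays of PC3 and C4-2 the group's median lay between −0.02 and 0.06. The groups are small, and each median rests on 1 array.

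The arrays of 1 line that share a precursor or an agent are given side by side. With bisamide at 24 h and then 48 h, SLC25A5 was −0.31 and −0.38, SLC25A6 0.28 and 0.43 and SLC25A36 0.39 and 0.17. With the strands of miR-532, 2 members passed 1 in size on one array and had the opposite sign on the other (both values over 3 times the SD of repeated spots). These were SLC25A24 and SLC25A32, and 27 of the 14847 genes read on both arrays did so (0.182%). With the strands of miR-140 this held for 0 members and for 22 of 16992 genes (0.129%). Whether the arrays of a line used the same mock RNA is not stated.

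Other genes that handle mitochondrial metabolites or import the carriers were read on the same arrays. Of the further family members with other names, 5 of 8 listed genes were on the array, and UCP2, an uncoupling protein, was −0.52 with miR-140-5p. Among the pyruvate carrier and outer membrane pore genes, 5 of 7 were on the array. MPC1, a subunit of the pyruvate carrier, was 0.68 with miR-199-3p, and MPC2, its partner, was −0.65 with miR-140-5p and −0.63 with miR-532-3p. All 11 genes of the carrier import route were on the array, and their median lay between −0.11 (miR-532-5p) and 0.06 (miR-140-3p). With miR-140-5p TOMM20, a receptor of the outer membrane, was 0.72 and TIMM8B, a small chaperone of the intermembrane space, was −0.68, so the list held values on both sides of 0. No gene of these 3 lists passed 1 in size on any array.

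The probe sequences of the members were searched for the 7 bases complementary to each seed. For miR-532-5p these are AAGGCAT, found in 0.486% of all probes and in 1 of 60 member probes, that of SLC25A4. For miR-140-5p they are AACCACT, found in 0.436% of all probes and in 1 member probe, of SLC25A27, which was not read in T24. The 2 windows, in capitals where they match the seed, are printed because they are the only matches among member probes.
SLC25A4, miR-532-5p: ctctgtccAAGGCATcattatct
SLC25A27, miR-140-5p: ctgcattgAACCACTtagggaaa
SLC25A4 was at −0.28 with miR-532-5p. No member probe held ACTACTG for miR-199-3p (0.402% of all probes), TAACCCG for miR-125b-1-3p (0.0361%), GTGGGAG for miR-532-3p (0.411%) or CTGTGGT for miR-140-3p (0.607%). Only the strand given in the files was read. A probe covers 60 bases of a transcript, and the rest of the messages was not read here, so a missing match says only that these letters are not in the probe.

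The mock channels gave the level of each carrier in the untreated lines, on a log2 scale after quantile normalization of the 8 Cy3 channels. PC3 had 3 mock channels, 786-O and T24 had 2 each and C4-2 had 1, and the labels do not say whether those of a line came from separate cultures. Levels are compared between lines for 1 gene at a time, never between genes. In 41 members the level could be read in at least 1 line. The highest and the lowest line differed by over 1 in 15 of them (36.6%) against 29.1% of all genes, and by over 2 in 4 (9.76%) against 7.98%. Without the single C4-2 channel, 8 of 41 members (19.5%) differed by over 1 between the other 3 lines, against 16.9% of all genes. Members differed by a median of 0.05 to 0.11 between mock channels of the same line and by 0.21 to 0.53 between lines. For all genes these medians were 0.04 to 0.08 and 0.22 to 0.32.

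SLC25A33 differed most between the lines. Its mock level was 10.40 in C4-2, 7.64 to 7.86 in PC3, 7.61 to 7.70 in T24, and 5.72 and 5.73 in 786-O, where it was not above background. The level in C4-2 was at least 24.3-fold that in 786-O, a bound set by the dimmest signal well above background, while PC3 and T24 overlapped. SLC25A25 was 10.31 in C4-2 and 7.31 to 7.52 in the 7 other channels. SLC25A36 was 9.78 in C4-2 and 7.91 to 8.56 elsewhere, and SLC25A29, a carrier of basic amino acids, was 9.65 in C4-2 and 8.05 to 8.95 elsewhere. After quantile normalization these 4 genes were thus highest in the single C4-2 channel, which was also the channel with high KLK3.

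Other members were lowest in C4-2. SLC25A32 was 7.21 in C4-2, against 8.87 to 9.09 in PC3 and 8.87 and 8.95 in 786-O, which overlapped, and 8.67 and 8.73 in T24. SLC25A24 was 9.52 and 9.58 in T24, 9.17 and 9.19 in 786-O, 8.34 to 8.47 in PC3 and 7.77 in C4-2. After quantile normalization, SLC25A24 and SLC25A32 thus had their second highest mean mock level of the 4 lines in 786-O, which received miR-532-5p. This rank depended on the scaling. With median centring of the mock channels, both genes were higher in PC3 and in T24 than in 786-O.

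T24 had the highest mock levels of SLC25A37 and SLC25A12. SLC25A37 was 9.02 and 9.04 in T24, 8.72 and 8.73 in 786-O, 8.28 in C4-2 and 7.39 to 7.80 in PC3. SLC25A12 was 9.38 and 9.47 in T24, whereas the ranges of PC3 (8.12 to 8.38) and C4-2 (8.21) met and 786-O was at 7.97 and 8.03. Both genes also had one of the largest ratios with miR-140-5p in T24, SLC25A37 upwards and SLC25A12 downwards.

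The ADP/ATP carriers differed from one another in their spread over lines. SLC25A4 was 9.65 in C4-2, 8.40 and 8.47 in T24, 8.38 to 8.43 in PC3 and 7.35 and 7.42 in 786-O, and T24 and PC3 overlapped. SLC25A5 spanned less, from 12.32 to 12.56 in PC3 through 12.08 and 12.16 in T24 and 11.69 in C4-2 to 11.59 and 11.64 in 786-O. SLC25A6 spanned 0.52 between line means, from 12.16 in PC3 to 12.68 in C4-2. SLC25A5 and SLC25A6 were above background on every array, whereas SLC25A31 was at 5.72 to 5.76 as a line mean and not above background in any line.

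Over the family, C4-2 was the highest line for 17 of 41 members (41.5%), PC3 for 13 (31.7%), T24 for 9 (22.0%) and 786-O for 2 (4.88%). Of all genes 30.7% were highest in C4-2, 24.7% in PC3, 23.2% in T24 and 21.4% in 786-O. The lowest line was 786-O for 15 members (36.6%), C4-2 for 11 (26.8%), T24 for 9 (22.0%) and PC3 for 6 (14.6%), against 25.9%, 31.4%, 20.1% and 22.7% of all genes. Leaving out 1 mock channel of PC3, 786-O or T24 at a time gave 15 to 17 of 41 members over 1. These were 36.6% to 41.5% of members, against 28.7% to 29.1% of all genes. With median centring of the mock channels in place of quantile normalization, 26 of 41 members were over 1 against 43.0% of all genes. Under that scaling SLC25A29 and SLC25A6 were highest in PC3 rather than in C4-2, and the lowest line became 786-O for SLC25A25, SLC25A36 and SLC25A6 and C4-2 for SLC25A37. The highest and lowest lines of SLC25A33, SLC25A4, SLC25A32, SLC25A24, SLC25A12 and SLC25A5 were the same under quantile normalization, median centring, loess with Aquantile and an offset of 0.

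**Figure D4:**
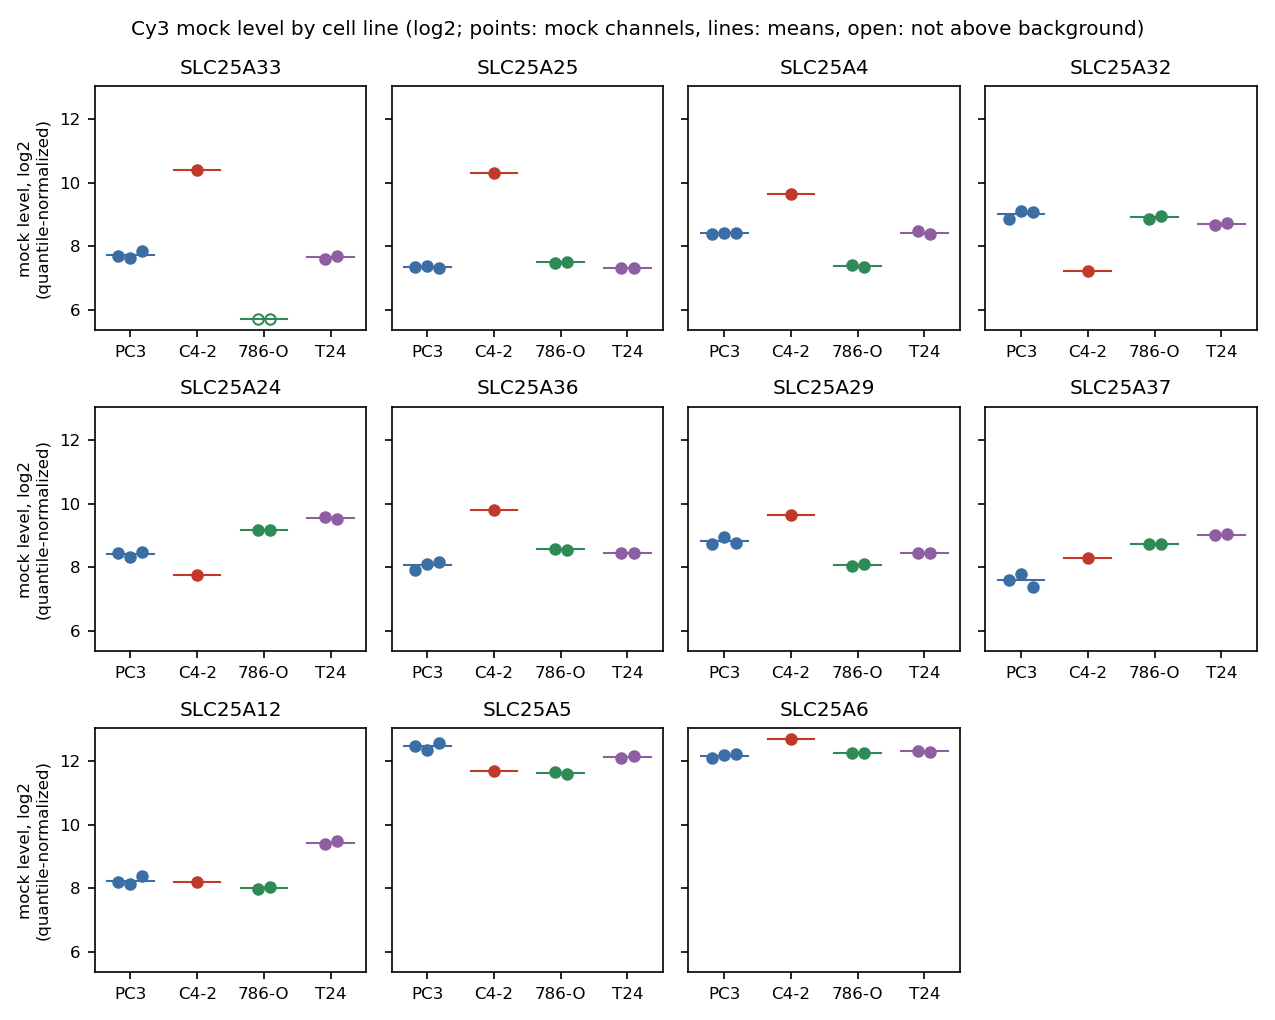
Cy3 mock level (vertical axis, quantile-normalized log2 intensity) of 9 of the 10 SLC25 genes with the widest difference between lines, and of SLC25A5 and SLC25A6, in PC3, C4-2, 786-O and T24 (horizontal axis). Points are mock channels, bars are line means and open points were not above background. SLC25A33 reaches 10.40 in C4-2 and is not above background in 786-O, while the line means of SLC25A6 lie within 0.52.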

How the data were processed

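Total RNA of mock (Cy3) and treated (Cy5) cells was hybridised to 8 two-colour 60-base arrays on 1 slide. Per the file headers, the authors read them with Agilent Feature Extraction 11.5.1.1, whose spot and local background intensity values are linear and not normalized, and whose log10 ratio is background-subtracted and dye-normalized. The deposited series table holds the same log10 ratio, on which an alternative was run. Intensities were corrected here with normexp (offset 50) and loess in limma 3.58.1 (R 4.3.3), giving log2 ratios from the deposited intensities. Outlier spots (126 to 181 an array) were dropped, repeated spots averaged, and a gene was represented by its probe with the highest mean log2 intensity. No spot was saturated. The offset draws the ratios of dim genes towards 0. Coordinates are GRCh37. Of 47 member symbols 44 matched RefSeq by accession. Tested on simulated data, the background and loess steps gave the right sign for all changed spots. Only bright spots were changed, so dim genes and a dye bias that varies with intensity were not covered.

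The members and lists were chosen with earlier results of these data known. Named were the ADP/ATP carriers, members past 1.0 or next to 1.5 and 1.0, the 3 lowest and 3 highest members per array and the 10 with the widest mock difference; members outside this rule that are named complete their substrate groups and were chosen after their values were seen. The number of arrays limits the precision. The values of some genes are not reported here, although counts and medians include them.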

Additional observations from a re-analysis of the deposited data

Results flagged for a closer look

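SLC25A24 and SLC25A32 passed 1 in size with one strand of miR-532 and had the opposite sign with the other in 786-O. The miR-532-5p value minus the miR-532-3p value was −1.66 for SLC25A24, from −1.19 and 0.47, and −1.62 for SLC25A32, from −1.26 and 0.36. Each of these genes has 1 probe. In members with more than 1 probe above background, the probes shared a sign in 58 of 82 gene-array pairs. With 1 array per strand the difference between the strands was not tested.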

How the results depend on the processing

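SLC25A5 with miR-532-5p was between −2.99 and −2.56 under the 10 alternatives, SLC25A32 between −1.84 and −1.26 and SLC25A24 between −1.57 and −1.19. SLC25A23 with miR-140-5p ran from −1.70 to −0.69, the last as a mean over both probes. Ratios of other members also depended on the processing. With the scanner's ratio SLC25A10 with miR-532-5p was −1.57 rather than −0.37, and SLC25A13 with miR-199-3p was −1.48 rather than −0.50. With median centring SLC25A3 with miR-140-5p was 1.21 rather than 0.10. Member-array pairs below −1.5 numbered 2 without background correction, 4 with plain subtraction or an offset of 0 and 5 with the scanner's ratio or the series table. Pairs below −1 numbered 9 with plain subtraction, an offset of 0, the scanner's ratio or the series table, where SLC25A13, SLC25A10, SLC25A11 and SLC25A30 joined. Pairs above 1 numbered 14 with median centring. The shares of all genes past these sizes under the alternatives are not given here, so these counts are not read as a result about the family. The difference of member and all-gene medians with miR-532-5p was −0.42 with plain subtraction, −0.37 without background correction, −0.405 with an offset of 0, −0.31 with median centring, −0.46 with the scanner's ratio and the series table, −0.205 with 1 channel above background, −0.075 with no filter and −0.18 relative to each gene's median over the other arrays. That last setting gave −0.0058 and −0.0302 for bisamide at 24 h and 48 h and 0.0535 for miR-532-3p. With median centring it was 0.116 and 0.077 for bisamide at 24 h and 48 h, 0.067 for miR-125b-1-3p, 0.10 for miR-532-3p, 0.089 for miR-140-5p and 0.19 for miR-140-3p. The scanner's ratio and the series table gave −0.13 and −0.12 for bisamide at 24 h and 48 h and −0.11 for miR-125b-1-3p, which was −0.10 with plain subtraction. Members over 1 between lines numbered 26 with median centring of Cy3 (43.0% of all genes) and 28, or 68.3%, with an offset of 0 (67.0% of all genes). They numbered 15 to 17 when single mock channels of PC3, 786-O or T24 were left out (28.7% to 29.1% of all genes). Without the C4-2 channel, an alternative chosen after seeing the data, they numbered 8 (16.9% of all genes). The cause of these shifts was not tested. No paired analysis was possible because there was only 1 array for each treatment. Signal over background limits the 6 members never read and the dim second probes.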
